A study of Bombyx mori with 4 samples.

Results

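Total RNA from BmN4 cells, a cultured germ cell line derived from the silkworm ovary, was examined for the long interspersed elements (LINEs) of the silkworm genome, leaving out the site-specific elements R2Bm and SART1. The cells had been electroporated with siRNA against Siwi (Siwi KD) or against luciferase (Luc KD, the control), so that both groups shared the cell line, the delivery and the culture, and differed in the siRNA. Each condition had 2 libraries, but the deposited table gives 1 merged value per sequence and condition. From this table no difference could be set against the spread between libraries, values of single libraries from other sources were not used here, and no p-value was computed. The table lists 259 curated LINEs among 18596 sequences, and the members were chosen by their RPKM (reads per kilobase of sequence, scaled to the genome-mapped reads of the condition), which had to be above 1 in Siwi KD or in Luc KD. Of 78 that passed, R2Bm and SART1 were set aside, which left 76 LINEs. Because the measured levels chose them, levels and changes are given as a description. Of the 76, 37 have an element name of their own, whereas 39 are numbered members of the BmTE_RM sets.

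LINEs are retrotransposons without long terminal repeats that move by copying their RNA into DNA at a nicked target site, a reaction first worked out with the silkworm R2 protein. Their RNA is therefore both the message for the reverse transcriptase and the template of the new copy. In silkworm germ cells, Siwi, a PIWI protein, is loaded with piRNAs and cleaves complementary transposon RNAs in the cytoplasm, and BmN4 cells hold this pathway. Silkworm LINEs differ in where they insert. R1Bm belongs to a group that inserts into 28S ribosomal RNA genes, and TRAS elements insert into the telomeric repeats at chromosome ends, whereas many CR1, Jockey and RTE elements have no fixed target.

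The 76 LINEs received 504464 of 84961588 reads in Siwi KD and 390092 of 77350240 reads in Luc KD, which were 0.594% and 0.504% of the reads counted on all sequences. The counts, lengths and RPKM values together gave 129779634 genome-mapped reads in Siwi KD and 122229138 in Luc KD. Every count was even, as when both mates of a pair are counted, so 95% intervals of the RPKM ratio (exact binomial, Clopper-Pearson) were computed on pairs. They cover counting error only, and reads that fit several copies were assigned in random and multiple modes, so similar elements can share reads. The depth behind a LINE ranged widely, and 20 of the 76 had fewer than 1000 reads over both conditions. In bulk RNA, a change in the share of cells that carry a transcript and a change in the RNA per cell cannot be told apart. Gene models in the table carry identifiers only, so neither the level of Siwi mRNA nor markers of the cell type are reported here.

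The families that the table gives for the 259 listed LINEs were unequally represented. All 6 L2-Daphne LINEs passed the limit, as did 16 of 23 R1 LINEs other than SART1, 12 of 18 CR1 LINEs, 7 of 14 I-Jockey LINEs and 7 of 18 I LINEs. The RTE-BovB group, named after an RTE element known from cattle, passed with 7 of 55, and the RTE group with 2 of 39. No read was found in either condition for 35 RTE-BovB and 32 RTE LINEs. None of the 16 LINEs labelled Jockey, of which 8 had no read, and none of the 9 labelled CR1-Zenon passed. Over all families, 181 LINEs were at or under 1 RPKM in both conditions, and 115 of these had no read. The LINEs that passed had a median length of 2857 nt (297 to 11358 nt), against 543 nt (60 to 5730 nt) for those that did not. Of the LINEs that passed, 15.8% were shorter than 1000 nt, against 65.2% of those that did not.

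The limit was crossed in both conditions by 68 LINEs, in Siwi KD alone by 8, and in Luc KD alone by 0. The 8 were BmTE_RM1-583, BmTE_RM6-1880, Dong-2_BM, TRAS5, BmTE_RM6-3570, Kimutaku, BmTE_RM6-2052 and BmTE_RM1-601. They passed only through Siwi KD, so their higher value there was part of the choice. Just inside the limit were BmTE_RM1-652 (1.06 RPKM in Siwi KD and 1.08 RPKM in Luc KD), BmTE_RM6-3570 (1.10 and 0.737 RPKM in the same order) and Kimutaku (1.16 and 0.729 RPKM in that order). Just outside were BmTE_RM6-18 with 0.982 RPKM in Siwi KD and 0.949 RPKM in Luc KD, BmTE_RM5-1065 with 0.939 and 0.551 RPKM in the same order, and BmTE_RM5-3005 with 0.898 and 0.804 RPKM.

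The 76 LINEs had a median of 4.11 RPKM in Siwi KD (quartiles 2.01 and 11.6) and 3.19 RPKM in Luc KD (quartiles 1.65 and 10.6). More than 10 RPKM was reached by 23 LINEs in Siwi KD and by 20 in Luc KD, and more than 100 RPKM by 2 and 1 LINEs in the same order. The abundance was held by few elements. The 5 highest LINEs made up 54.2% of the summed RPKM in Siwi KD and 54.3% in Luc KD, and the 10 highest made up 68.2% in Siwi KD and 66.0% in Luc KD. Of the 10 highest in each condition, 8 were shared. Both elements left out were more abundant than any of the 76. R2Bm had 6934 RPKM in Siwi KD and 4317 RPKM in Luc KD, and SART1 had 1283 RPKM in Siwi KD and 1034 RPKM in Luc KD. The 76 LINEs together held 12.7% of the curated LINE RPKM above the limit in Siwi KD and 14.7% in Luc KD.

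**Figure D1:**
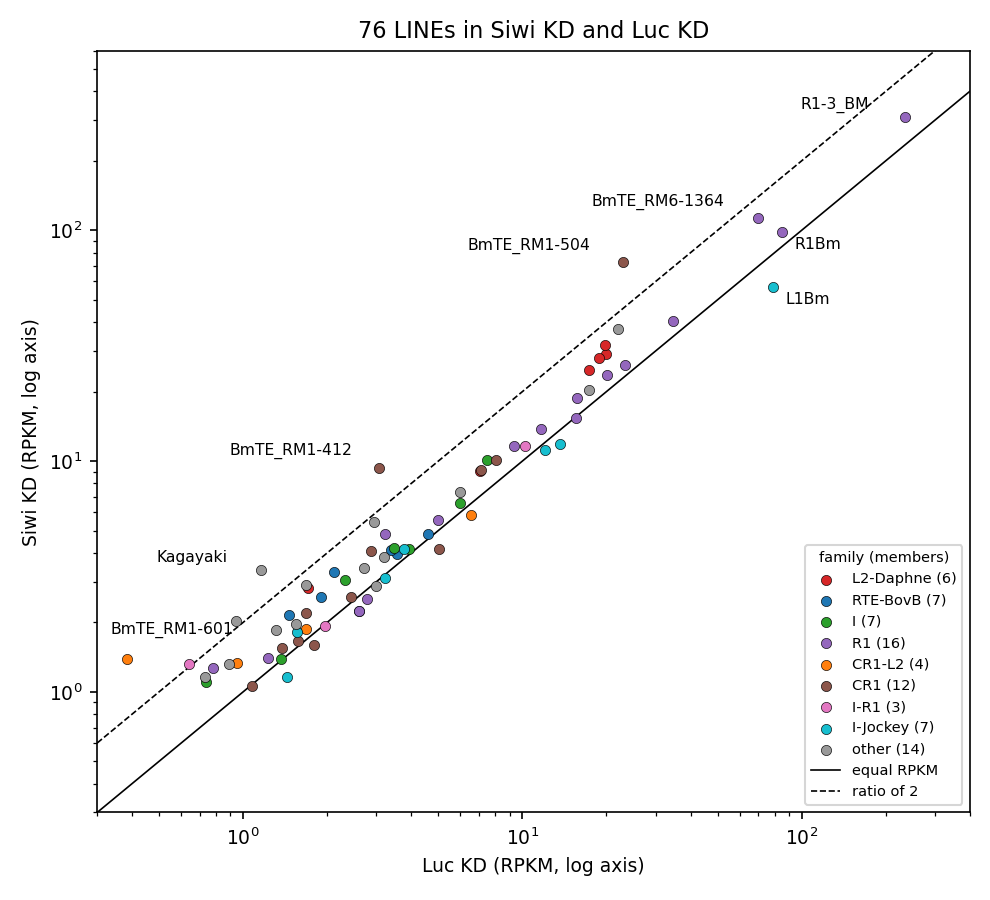
RPKM of each of the 76 LINEs in Siwi KD (vertical, log axis) against Luc KD (horizontal, log axis), 1 point per LINE, coloured by family. The solid line marks equal RPKM and the dashed line a ratio of 2, and 61 points lie above the solid line and 15 below it.

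The fold change (FC) of a LINE was log2 of (RPKM + 1) in Siwi KD over (RPKM + 1) in Luc KD, and it was called changed past a log2 FC of 1 in either direction. Most LINEs had a slightly higher RPKM in Siwi KD, and few changed by this measure. The median log2 FC was 0.23, with quartiles of 0.07 and 0.39 and a range of -0.47 to 1.62. A log2 FC above 1 was found for 3 LINEs (3.95%), against a background of 1.98% of the 9549 sequences above 1 RPKM and 5.34% of the 1610 transposons above it. A log2 FC below -1 was found for 0 LINEs, against 0.534% of all sequences and 0.124% of the transposons. Between 0.5 and 1 lay 11 LINEs, between 0 and 0.5 lay 47, and 15 were lower in Siwi KD. RPKM was higher in Siwi KD for 61 LINEs (80.3%), a share close to the 79.6% of all transposons above the limit, and above the 46.9% of all sequences. For the 8 LINEs that passed only through Siwi KD, the choice fixed this direction. Of the 68 LINEs above 1 RPKM in both conditions, 53 (77.9%) were higher, with a median log2 FC of 0.22. The shares of all sequences and of all transposons above 1 RPKM in both conditions were not computed. Of the 23 LINEs above 10 RPKM in either condition, 19 were higher in Siwi KD, 1 had a log2 FC above 1 and 0 had one below -1, against 38%, 3.63% and 1.06% of the 3006 sequences above 10 RPKM. Those sequences were mostly protein-coding genes, and the shares among transposons above 10 RPKM were not computed. The split of the LINEs into higher and lower depended on the scaling. When reads were scaled to the total on the library sequences without the most abundant transposon, a sequence of 9536 nt, the median of protein-coding genes moved by -0.14 on the log2 scale, and 49 LINEs were higher and 27 lower in Siwi KD (64.5% higher). That transposon had 24497 RPKM in Siwi KD and 27227 RPKM in Luc KD. It is 1 of 193 curated transposons outside the LINE, LTR, DNA and SINE classes. These 193 received 31126148 of 84961588 reads in Siwi KD and 32620642 of 77350240 reads in Luc KD. Relative to the protein-coding median, which was -0.07 in the deposited scaling, 66 LINEs were higher and 10 lower. The shares of all sequences and of all transposons that were higher under these other scalings were not computed.

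By counting error alone, the interval of the RPKM ratio lay above 1 for 51 LINEs and below 1 for 6, and held 1 for 19. The 51 include all 8 LINEs that passed only through Siwi KD, and 43 of the 68 above 1 RPKM in both conditions. Among all sequences above 1 RPKM, 27.7% had an interval above 1 and 33% one below it, and among the transposons 56.7% and 7.58%. The median ratio of the 76 LINEs was 1.22, and the ratio of their summed RPKM was 1.29, from 1197 RPKM in Siwi KD and 926 RPKM in Luc KD. The net difference of 271 RPKM came largely from 3 elements. R1-3_BM contributed 27.4% of it, BmTE_RM1-504 18.4% and BmTE_RM6-1364 15.8%, whereas the share of L1Bm was -8.13%. Without R1-3_BM, the ratio of the sums was 1.29 as well.

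**Figure D2:**
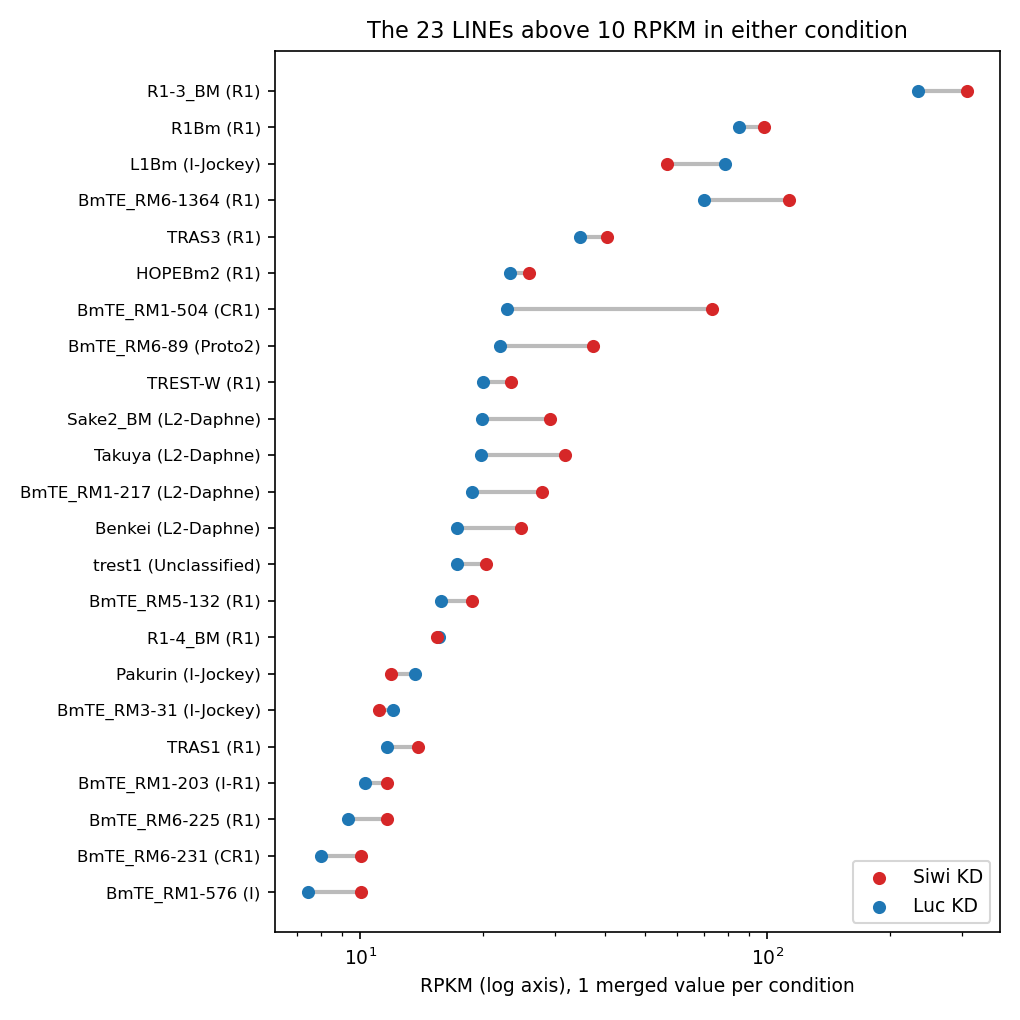
RPKM (log axis) in Siwi KD and Luc KD for the 23 LINEs above 10 RPKM in either condition, ordered by the level in Luc KD, with 1 merged value per condition and the family in brackets. The widest gap is that of BmTE_RM1-504, and the Siwi KD value lies left of the Luc KD value for 4 LINEs.

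The R1 family, which in insects includes the elements of ribosomal genes and of telomeric repeats, was the most abundant. Its 16 LINEs summed to 687 RPKM in Siwi KD and 535 RPKM in Luc KD, or 57.4% and 57.8% of the 76 LINEs. The median log2 FC was 0.22 (-0.16 to 0.68), and it was 0.05 when scaled without the most abundant transposon. In Siwi KD 13 were higher (81.25%), a share close to the 79.6% of all transposons above 1 RPKM. R1-3_BM, an element of 2864 nt, had 309 RPKM in Siwi KD (114780 reads), against 234 RPKM in Luc KD (82062 reads). Its ratio was 1.32 (95% counting interval 1.30 to 1.33). R1Bm, the silkworm R1 element of 28S ribosomal RNA genes (5139 nt), had 98.0 RPKM in Siwi KD and 85.0 RPKM in Luc KD, a ratio of 1.15 (1.13 to 1.17). Its log2 FC of 0.20 was 0.03 when scaled without the most abundant transposon. BmTE_RM6-1364, a sequence of only 948 nt, had 113 RPKM in Siwi KD and 69.9 RPKM in Luc KD, a ratio of 1.61 (1.55 to 1.68). It thereby stood above R1Bm in Siwi KD and below it in Luc KD.

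The TRAS elements, telomere-specific LINEs of the R1 family, differed in level by more than 10-fold in both conditions. TRAS3 (8005 nt) had 40.3 RPKM in Siwi KD and 34.6 RPKM in Luc KD. TRAS1 (7850 nt) had 13.8 RPKM in Siwi KD and 11.7 RPKM in Luc KD. Both were slightly higher in Siwi KD, with ratios of 1.17 (1.14 to 1.19) for TRAS3 and 1.19 (1.15 to 1.23) for TRAS1. Their log2 FCs of 0.22 and 0.23 were 0.05 and 0.07 when scaled without the most abundant transposon. TRAS4 (1960 nt) had 2.23 RPKM in Siwi KD and 2.60 RPKM in Luc KD, and the interval of its ratio held 1 (0.727 to 1.01). TRAS5 (1970 nt) had 1.27 RPKM in Siwi KD and 0.781 RPKM in Luc KD, and passed the limit through Siwi KD only. Summed over the 4 TRAS elements, RPKM was 57.6 in Siwi KD and 49.6 in Luc KD, a ratio of 1.16, against 1.24 (1.24 to 1.25) for SART1, which also inserts into telomeric repeats.

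The remaining R1 LINEs with names had ratios between 0.910 for R1-1_BM and 1.51 for CATS. HOPEBm2 (3883 nt) had 26.0 RPKM in Siwi KD and 23.3 RPKM in Luc KD. TREST-W (6968 nt) had 23.5 RPKM in Siwi KD and 20.0 RPKM in Luc KD. R1-4_BM (3196 nt) had 15.4 RPKM in Siwi KD and 15.6 RPKM in Luc KD, and the interval of its ratio (0.944 to 1.04) held 1. Taguchi (6846 nt), with 5.55 RPKM in Siwi KD and 5.00 RPKM in Luc KD, had a ratio of 1.11, and CATS (5117 nt), with 4.84 RPKM in Siwi KD and 3.21 RPKM in Luc KD, one of 1.51 (1.39 to 1.64). R1-1_BM (2930 nt) had 2.54 RPKM in Siwi KD and 2.79 RPKM in Luc KD, and its interval (0.801 to 1.03) held 1. HOPEBm2 and Taguchi were slightly lower in Siwi KD, with log2 FCs of -0.02 each, when scaled without the most abundant transposon. The numbered R1 LINEs BmTE_RM5-132, BmTE_RM6-225 and BmTE_RM4-315 had ratios of 1.20, 1.24 and 1.14.

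The CR1 family, named after chicken repeat 1 (CR1), held the LINEs with the highest and the next highest log2 FC at a pseudo-count of 1. Without a pseudo-count the highest ratio was that of BmTE_RM1-601, a CR1-L2 LINE (3.63). BmTE_RM1-504, 888 nt long, rose to 72.9 RPKM in Siwi KD (8400 reads), against 22.98 RPKM in Luc KD (2494 reads). Its log2 FC was 1.62 and its ratio 3.17 (2.98 to 3.38). BmTE_RM1-412, 1212 nt long, rose to 9.37 RPKM in Siwi KD (1474 reads), against 3.06 RPKM in Luc KD (454 reads), with a log2 FC of 1.35 and a ratio of 3.06 (2.63 to 3.56). The intervals of the 2 ratios overlapped. Whether the 2 sequences share reads was not tested, because no element sequence was used here. Without these 2, the other 10 CR1 LINEs had a median log2 FC of 0.08, with 7 higher in Siwi KD and 3 lower, and a ratio of the sums of 1.16, against 2.04 with them. Those 10 ranged from -0.22 to 0.39. CR1-1_BM (3410 nt) had 9.19 RPKM in Siwi KD and 7.11 RPKM in Luc KD. Kendo (3676 nt), with 4.17 RPKM in Siwi KD and 5.01 RPKM in Luc KD, had a ratio of 0.832 (0.763 to 0.907), and Bm5886_high-copy, with 1.60 RPKM in Siwi KD and 1.79 RPKM in Luc KD, and Daiki, with 2.58 RPKM in Siwi KD and 2.43 RPKM in Luc KD, had intervals that held 1.

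The third LINE past a log2 FC of 1 was Kagayaki, an element of 5276 nt labelled Unclassified in place of a family. It rose to 3.37 RPKM in Siwi KD (2310 reads), against 1.16 RPKM in Luc KD (746 reads), with a ratio of 2.92 (2.59 to 3.29). Its log2 FC of 1.02 was just past the limit, and when scaled without the most abundant transposon only BmTE_RM1-504 and BmTE_RM1-412 were past it. At such low levels the added pseudo-count holds the FC down. Without it, 6 LINEs had a ratio above 2, against 4.48% of all sequences and 10% of the transposons above 1 RPKM, with BmTE_RM1-601, BmTE_RM6-1880 and BmTE_RM6-2052 added to the 3. All 3 of these were under 1 RPKM in Luc KD and entered through Siwi KD. BmTE_RM1-601, a CR1-L2 sequence of 299 nt, rested on 54 reads in Siwi KD and 14 reads in Luc KD, and its ratio of 3.63 had an interval of 1.54 to 9.88. The other element labelled Unclassified that passed, trest1 (1738 nt), had 20.4 RPKM in Siwi KD and 17.3 RPKM in Luc KD.

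**Figure D3:**
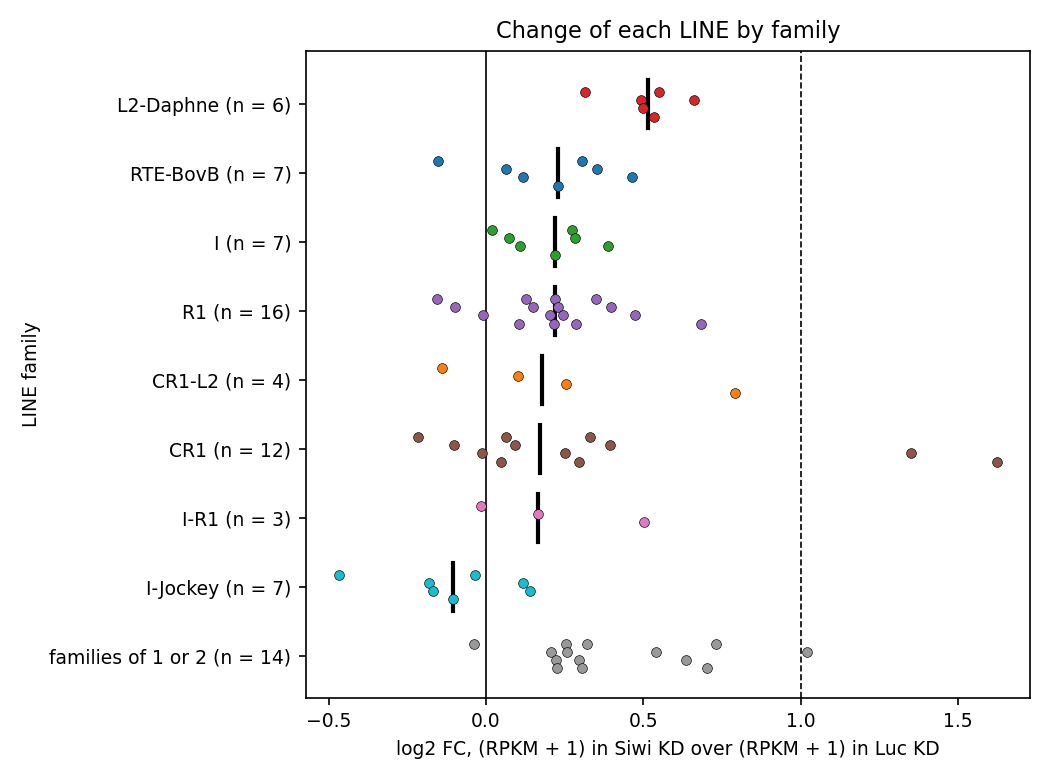
log2 FC of each LINE by family, for the 8 families with 3 or more LINEs and the 14 LINEs of smaller families, with black bars at the family medians and a dashed line at a log2 FC of 1. All 6 L2-Daphne points lie between 0.32 and 0.66, whereas 5 of the 7 I-Jockey points lie below 0.

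The L2-Daphne family, a branch of L2-like LINEs, was higher in Siwi KD in every member. All 6 of its LINEs had ratios whose counting intervals lay above 1, in a narrow range of 1.28 to 1.66, and the family median log2 FC was 0.52 (0.37 when scaled without the most abundant transposon). Over all transposons above 1 RPKM, 79.6% were higher in Siwi KD and 56.7% had an interval above 1. Takuya (5161 nt) had 31.9 RPKM in Siwi KD and 19.8 RPKM in Luc KD, a ratio of 1.61 (1.56 to 1.66). Sake2_BM (3192 nt) had 29.2 RPKM in Siwi KD and 19.9 RPKM in Luc KD, a ratio of 1.47 (1.41 to 1.53). BmTE_RM1-217, with 28.01 RPKM in Siwi KD and 18.8 RPKM in Luc KD, and Benkei, with 24.7 RPKM in Siwi KD and 17.3 RPKM in Luc KD, lay close to them. These 4 elements lay within 24.7 to 31.9 RPKM in Siwi KD and 17.3 to 19.9 RPKM in Luc KD, and whether they share reads was not tested. BmTE_RM5-213 and BmTE_RM5-279 were lower in level, at 9.05 and 2.82 RPKM in Siwi KD against 7.07 and 1.70 RPKM in Luc KD. None of the 6 passed a log2 FC of 1. Both L2-Kiri LINEs, Kimutaku and BmTE_RM6-4101, were also higher in Siwi KD, with ratios of 1.59 and 1.72, but Kimutaku had passed only through Siwi KD, which fixed its direction.

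The I-Jockey family was the only one of the 8 families with a median log2 FC below 0, at -0.11 (-0.47 to 0.14). This contrast was partly set by the choice. Among the 76 LINEs, the CR1-L2 median was above 0 through BmTE_RM1-583 and BmTE_RM1-601, which passed only through Siwi KD. The I-Jockey median stayed below 0 under both other scalings (-0.04 relative to the protein-coding median and -0.26 without the most abundant transposon). With every listed I-Jockey LINE that had a read, the median was 0.0076. Its summed RPKM was 90.0 in Siwi KD and 114 in Luc KD, a ratio of 0.787. L1Bm, an element of 2303 nt that the table places in this family, accounted for most of this difference. It had 56.7 RPKM in Siwi KD (16952 reads), against 78.8 RPKM in Luc KD (22178 reads), with a ratio of 0.720 (0.6997 to 0.741). Its log2 FC of -0.47 was the lowest of the 76 LINEs and did not pass -1. A separate entry of the same family spelled L1BM (3187 nt) had 0.435 RPKM in Siwi KD and 0.416 RPKM in Luc KD and stayed under the limit. Pakurin (6835 nt) had 11.9 RPKM in Siwi KD and 13.6 RPKM in Luc KD, with a ratio of 0.874 (0.842 to 0.908). BmTE_RM3-31, with 11358 nt the longest of the 76 LINEs, had 11.1 RPKM in Siwi KD and 12.1 RPKM in Luc KD, with a ratio of 0.923 (0.895 to 0.952). BmTE_RM1-27 had 1.16 RPKM in Siwi KD and 1.43 RPKM in Luc KD, and BmTE_RM1-25 had 3.12 RPKM in Siwi KD and 3.22 RPKM in Luc KD. Supermite-BMC1 (4.17 RPKM in Siwi KD and 3.76 RPKM in Luc KD) and BmTE_RM5-954 (1.82 RPKM in Siwi KD and 1.56 RPKM in Luc KD) were slightly higher in Siwi KD. The counting interval of Supermite-BMC1 (0.977 to 1.26) held 1, and its log2 FC was -0.02 when scaled without the most abundant transposon. Of the 6 LINEs whose counting interval lay below 1, 4 were I-Jockey LINEs, and the others were Kendo and BmTE_RM6-1965 of the CR1-L2 family.

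The I family, named after the I factor of Drosophila, had 7 LINEs, all with a higher RPKM in Siwi KD in the deposited scaling (log2 FC 0.02 to 0.39), although for BmTE_RM6-3570 the choice fixed this direction. The share over all transposons above 1 RPKM was 79.6%. BmTE_RM1-576 was the highest, with 10.1 RPKM in Siwi KD and 7.45 RPKM in Luc KD. I-2_BM (5480 nt) had 6.55 RPKM in Siwi KD and 6.00 RPKM in Luc KD, and Koshinaka (5242 nt) had 4.18 RPKM in Siwi KD and 3.92 RPKM in Luc KD, and both were lower in Siwi KD when scaled without the most abundant transposon (log2 FC -0.04 and -0.06). Nakasone (5554 nt), with 3.04 RPKM in Siwi KD and 2.32 RPKM in Luc KD, had a ratio of 1.31 (1.19 to 1.44). The 3 LINEs labelled I-R1 had log2 FCs of -0.02 to 0.50. The highest, that of BmTE_RM6-2052, belonged to a LINE that passed only through Siwi KD, which fixed its direction. BmTE_RM1-203 had 11.6 RPKM in Siwi KD and 10.2 RPKM in Luc KD, BmTE_RM1-179 had 1.93 RPKM in Siwi KD and 1.96 RPKM in Luc KD, and BmTE_RM6-2052 had 1.32 RPKM in Siwi KD and 0.639 RPKM in Luc KD. The 4 LINEs labelled CR1-L2 had a median log2 FC of 0.18. BmTE_RM6-1965 was the most abundant of them, with 5.85 RPKM in Siwi KD and 6.55 RPKM in Luc KD, a ratio of 0.893 (0.826 to 0.965), and BmTE_RM5-407 and BmTE_RM1-583 had ratios of 1.12 and 1.40. BmTE_RM1-583 and BmTE_RM1-601 passed only through Siwi KD, which fixed their direction. The log2 FCs of BmTE_RM6-1965 and BmTE_RM5-407 were -0.14 and 0.10, so the sign of the CR1-L2 median depended on that choice. With every listed CR1-L2 LINE that had a read, the median was 0.078.

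The RTE-BovB LINEs that passed had a median log2 FC of 0.23 (-0.15 to 0.47). In Siwi KD 6 of 7 were higher (85.7%), against 79.6% of all transposons above 1 RPKM. The RTE-BovB LINEs were low, with a median of 3.30 RPKM in Siwi KD and 2.59 RPKM in Luc KD. RTE-1_BM had 4.13 RPKM in Siwi KD and 3.38 RPKM in Luc KD, and RTE-6_BM had 3.30 RPKM in Siwi KD and 2.11 RPKM in Luc KD, a ratio of 1.56 (1.31 to 1.87). BmTE_RM1-93, at 297 nt the shortest of the 76 LINEs, had 2.23 RPKM in Siwi KD from 86 reads and 2.59 RPKM in Luc KD from 94 reads, and its interval (0.556 to 1.33) was correspondingly wide. BmTE_RM1-94 (451 nt) had 4.82 RPKM in Siwi KD and 4.57 RPKM in Luc KD. Of the RTE LINEs, RTE-3_BM had 7.37 RPKM in Siwi KD and 6.00 RPKM in Luc KD, and RTE-5_BM had 1.86 RPKM in Siwi KD and 1.31 RPKM in Luc KD. BmTE_RM6-89, labelled Proto2 (2349 nt), had 37.2 RPKM in Siwi KD and 22.005 RPKM in Luc KD, a ratio of 1.69 (1.62 to 1.77), whereas Proto2-1_BM, labelled RTE-Proto2, had 2.87 RPKM in Siwi KD and 2.98 RPKM in Luc KD, with an interval that held 1 (0.791 to 1.18).

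Among LINEs of the group whose enzymes carry a restriction-like endonuclease, as R2 does, R4-1_BM had 3.43 RPKM in Siwi KD and 2.71 RPKM in Luc KD, Dong had 1.96 RPKM in Siwi KD and 1.54 RPKM in Luc KD, and Dong-2_BM had 1.32 RPKM in Siwi KD and 0.888 RPKM in Luc KD. Cre-1_BM, of the CRE family, had 3.83 RPKM in Siwi KD and 3.18 RPKM in Luc KD. Their ratios were 1.26, 1.28, 1.49 and 1.20 in this order, against 1.61 (1.60 to 1.61) for R2Bm, the most abundant LINE listed. Dong-2_BM, with the highest of the 4 ratios, had passed only through Siwi KD, which fixed its direction. The single Penelope element that passed, BmTE_RM5-1758 (815 nt), had 5.43 RPKM in Siwi KD and 2.95 RPKM in Luc KD, a ratio of 1.84 (1.50 to 2.26). Penelope elements are often filed with LINEs although their reverse transcriptase forms a branch of its own.

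Among the 76 LINEs, which were chosen by their level, the level was only loosely related to the length. LINEs at or under the limit were shorter, with a median of 543 nt against 2857 nt for the 76. Across the 76 LINEs, Spearman's rho between length and RPKM was 0.24 in Siwi KD and 0.25 in Luc KD, and that between length and log2 FC was -0.15. The level in Luc KD and the log2 FC had a rho of -0.01. These coefficients describe 76 elements measured in the same libraries and are not tests, since elements can share reads and RPKM already divides by the length. LINEs of under 1000 nt (12) had a median log2 FC of 0.30, those of 1000 to under 3000 nt (28) one of 0.25, those of 3000 to under 5000 nt (21) one of 0.21, and those of 5000 nt or more (15) one of 0.22. The ratio of the summed RPKM was 1.84 for LINEs under 1000 nt, where BmTE_RM1-504 and BmTE_RM6-1364 were the largest, and 1.23, 1.21 and 1.18 in the 3 longer classes. LINEs with names of their own were longer than the BmTE_RM sets (median 3410 nt against 1660 nt) and had a lower ratio of summed RPKM, 1.19 against 1.57. The sums of the BmTE_RM sets were 410 RPKM in Siwi KD and 262 RPKM in Luc KD. Of these, BmTE_RM6-1364 had 113 and 69.9 RPKM and BmTE_RM1-504 had 72.9 and 22.98 RPKM, in the same order. The medians of the log2 FC were 0.22 for the LINEs with names and 0.25 for the BmTE_RM sets.

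**Figure D4:**
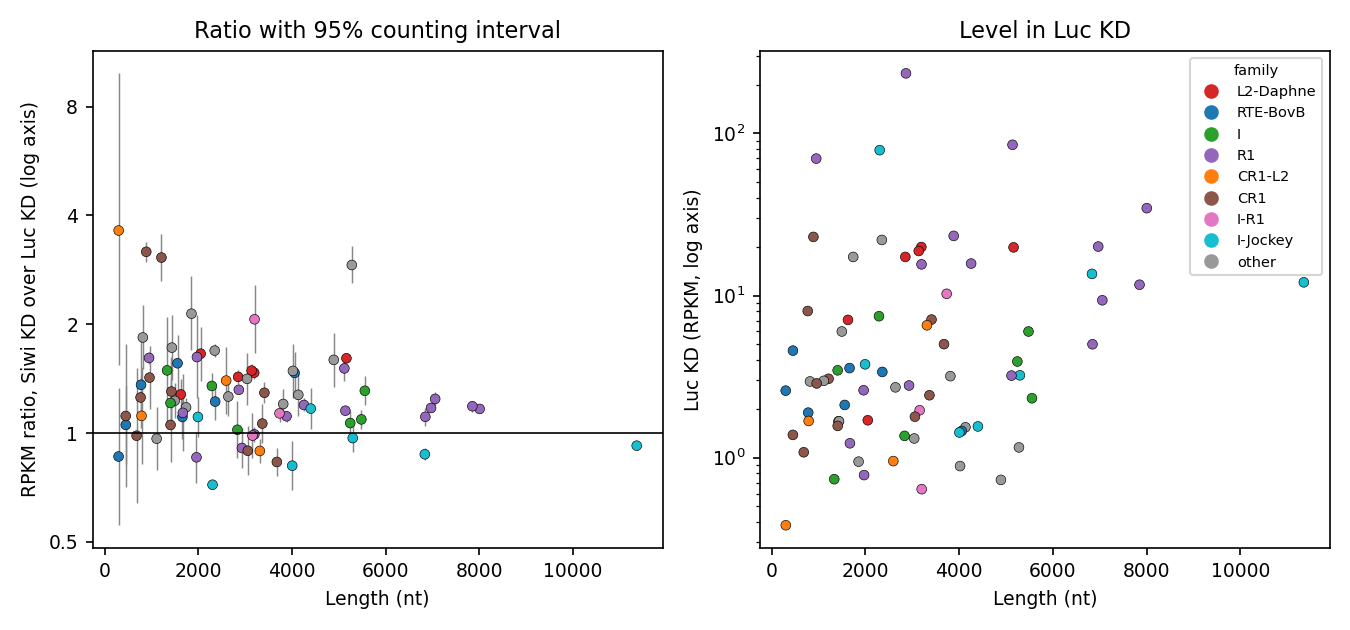
RPKM ratio of Siwi KD over Luc KD (left, log axis, with 95% counting intervals as bars) and RPKM in Luc KD (right, log axis) against the length of each of the 76 LINEs in nt, coloured by family. The ratios run from 0.862 to 3.63 for the 12 LINEs under 1000 nt and from 0.874 to 2.92 for the 15 LINEs of 5000 nt or more.

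Set beside the other classes under the same limit, LINEs had a smaller shift than LTR retrotransposons. The median log2 FC was 0.23 for the 76 LINEs, 0.45 for 92 LTR, 0.32 for 79 DNA and 0.35 for 11 SINE transposons, 0.13 for 193 other curated transposons, 0.18 for 1157 gene models annotated as transposons and -0.07 for 7939 protein-coding genes. A log2 FC above 1 was found for 3 LINEs (3.95%), 13 LTR (14.1%), 4 DNA (5.06%) and 0 of the 11 SINE transposons. The share was 1.98% over all sequences and 5.34% over all transposons under the same limit. The ratio of summed RPKM was 1.29 for the LINEs, against 2.22 for LTR, 1.24 for DNA and 0.870 for SINE transposons. Against all 375 other curated transposons, the LINE median was lower by 0.02 on the log2 scale, and its sign turned with a pseudo-count of 10. These differences were not tested, since the table used holds 1 value per condition.

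**Figure D5:**
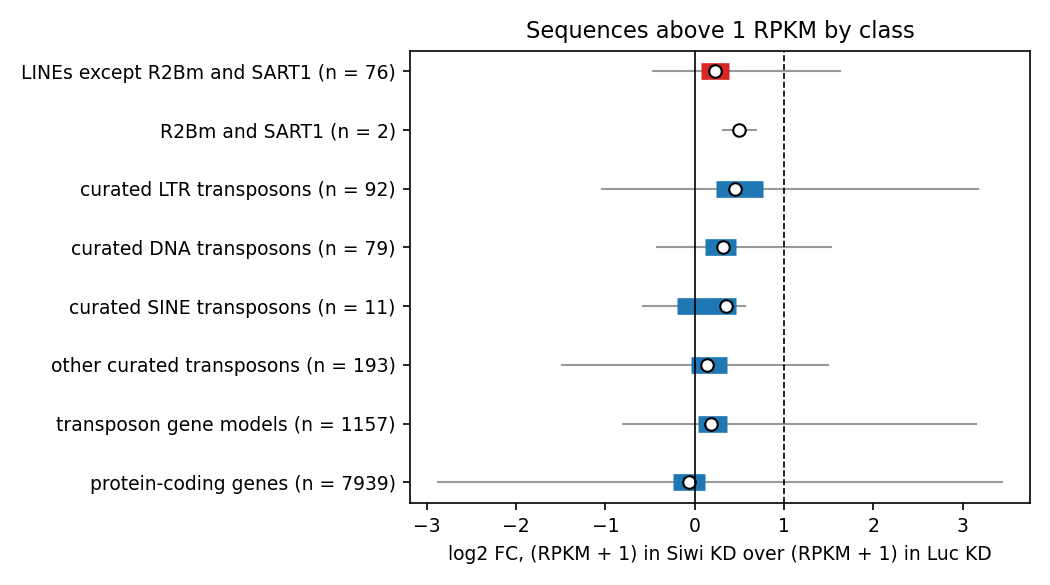
log2 FC by class for sequences above 1 RPKM in Siwi KD or Luc KD, with the median (circle), the quartiles (thick bar, not drawn for R2Bm and SART1) and the range (thin line), and a dashed line at a log2 FC of 1. The LINE quartiles of 0.07 and 0.39 lie above 0, as do those of LTR and DNA transposons and transposon gene models.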

How the data were processed

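BmN4 RNA was freed of ribosomal RNA (the depletion kit is sold for mammalian samples), and paired reads were taken from directional libraries. The authors corrected reads with Rcorrector, trimmed them with Trim Galore 0.6.6, discarded reads under 36 nt and used STAR for mapping to the genome and then to 18596 gene and transposon sequences in random and multiple counting modes, allowing 4% mismatches. The deposited read counts are sense reads, merged over the 2 libraries of each condition, and RPKM, as deposited, divides them by length and genome-mapped reads, with no pseudo-count. Class, family and length (in nt) were used as deposited.

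One read pair on 1000 nt was worth 0.0154 RPKM in Siwi KD and 0.0164 RPKM in Luc KD. A pseudo-count of 1 was added to RPKM for log2 FCs. Because these columns are merged, and values of single libraries given with the paper were not used here, tests between libraries were not run. Intervals of ratios came from exact binomial limits on read pairs. Element sequences were not used here. Alternatives were the pseudo-count (0.1, 10 or none, the last chosen after the values were seen), the scaling, the RPKM limit, the length and the elements included. Elements named in the text were those with a name of their own, the 10 with the highest RPKM in each condition, those past the FC limit or the 5 most extreme FCs on a side, the 3 longest and shortest, and those next to the limit. Further elements, and the groupings by name and by related family labels, were added after their values were seen. The elements and lists were chosen with earlier results of these data known. The calculations ran in Python 3.11.15 (scipy 1.17.1 for the intervals, pandas 2.3.3 and numpy 2.4.6 for tables, matplotlib 3.10.9 for plots) and were tested on simulated counts. These were Poisson draws, without spread between libraries or shared reads, so they check the calculation only. Fold changes in the simulation were not computed with the pseudo-count of 1.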

Additional observations from a re-analysis of the deposited data

How the results depend on the processing

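No paired analysis was possible because the deposited table, the only source of values used here, merges the replicates, and for the same reason no replicate was left out. The count of LINEs with a log2 FC above 1, 3 in the main analysis, was 5 with a pseudo-count of 0.1, 6 with none and 1 with a pseudo-count of 10, and 1 with a limit of 10 RPKM. No LINE was below -1 under any alternative tried. RPKM was higher in Siwi KD for 19 of the 23 LINEs above 10 RPKM and for 103 of the 142 LINEs with any read. Shares over all sequences were not computed for sequences with any read, nor for pseudo-counts of 0.1 and 10. The median log2 FC of 0.23 was 0.28 with a pseudo-count of 0.1, 0.28 with none, 0.077 with 10, 0.30 relative to the protein-coding median, 0.085 when scaled without the most abundant transposon and 0.094 for all LINEs with any read. The ratio of summed RPKM of 1.29 was 1.36 relative to the protein-coding median, 1.15 when scaled without the most abundant transposon, 1.21 for LINEs of at least 1000 nt and 1.50 with R2Bm and SART1. The LINE median minus that of the other curated transposons was -0.02, and it was -0.10 above 10 RPKM, -0.080 for sequences of at least 1000 nt and 0.0019 with a pseudo-count of 10. The I-Jockey median turned to 0.0076 when all LINEs with a read were included, and 7 of 8 family medians were above 0 in the main analysis and under both other scalings. Of these 7, the CR1-L2 median in the main analysis was above 0 through LINEs that had passed only through Siwi KD. Of 49 named LINEs, 3 changed sign relative to the protein-coding median and 7 when scaled without the most abundant transposon, and no other alternative changed a sign among them. The causes of these shifts were not tested, apart from those that follow from fewer or more LINEs entering. Depth limits the LINEs with few reads, of which BmTE_RM1-601 had 68 over both conditions.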

Other observations

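Below the limit of 1 RPKM in both conditions, 31 LINEs had at least 100 reads over both. The RPKM of 20 of these was higher in Siwi KD, with a median ratio of 1.10 over the 31. The counting interval lay above 1 for 5 of them and below 1 for 1. These were 64.5%, 16.1% and 3.23% of the 31 LINEs, against 73.4%, 33.9% and 5.56% of all 2034 sequences at or under the limit with as many reads. Among the 923 transposons of that kind, the shares were 81.9%, 35.1% and 2.28%. BmTE_RM6-5851, an I LINE of 2830 nt, had 100 reads in Siwi KD and 40 reads in Luc KD, with a ratio of 2.35 (1.38 to 4.18). SARTBm3, an R1 LINE of 5585 nt, had 452 reads in Siwi KD and 254 reads in Luc KD, with a ratio of 1.68 (1.34 to 2.10). BmTE_RM6-2596, the only I-Nimb LINE listed (5357 nt), had 532 reads in Siwi KD and 266 reads in Luc KD, with a ratio of 1.88 (1.52 to 2.34). BmTE_RM5-1395, a Jockey LINE of 2532 nt, had 66 reads in Siwi KD and 102 reads in Luc KD, with a ratio of 0.609 (0.381 to 0.963). These elements were picked after their values were seen, and their differences have no replicate check.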
